A study of Homo sapiens with 10 samples.

Results

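The resting transcriptome described here is that of MIA PaCa-2 cells that received only vehicle. MIA PaCa-2 is an established line from a human pancreatic ductal adenocarcinoma. The 5 libraries, DMSO replicates 1 to 5, came from cells given DMSO, the solvent of the drug arm, for 24 h. They were chosen by the label of their treatment and are 5 of the 10 libraries of the series. The other libraries came from the same line in 10 µM hydroxyprogesterone caproate. Their values served to fix the length behind each gene, and they also bear on which genes are listed. Poly(A) RNA was sequenced as paired-end reads, and all 16734 genes of the deposited table were described. Levels are FPKM, fragments scaled to transcript length and library size, and a gene is termed silent when its mean over the 5 libraries is under 0.1 FPKM. The labels call the libraries biological replicates without naming separate culture dates or passages, so each SD measures the spread between these libraries.

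Pancreatic ductal adenocarcinoma usually depends on growth signals that pass through the RAF, MEK and ERK kinases, and it often loses tumour suppressors, among them CDKN2A and SMAD4. MIA PaCa-2 is known to have lost CDKN2A. Tumours of this type are commonly sorted into a classical class with a gut-like epithelial programme and basal-like or quasi-mesenchymal classes, in which epithelial genes are low and filament, matrix and motility genes are high.

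FPKM compares genes only if the length it divides by is the same kind of length for each gene. The deposited values were whole multiples of what 1 count is worth in each library, which gave a length for every gene. It equalled the summed length of all annotated transcripts for 7076 genes and was another whole number for 9658. Where counts were few, the whole number nearest that sum was taken, so the length of such a gene is approximate. For 8889 genes of at least 1 FPKM with a GENCODE 29 model, this length was within 5% of the summed length of all annotated transcripts in 89.7%, and within 5% of the merged exon length in 6.38%. The divisor was 2.32 times the merged exon length at the median and ran from 1.00 at the 5th to 5.01 at the 95th percentile. Genes with many annotated transcripts are therefore listed lower than their exon length would give. GNAS, with 58 transcripts, had 13.5 FPKM as deposited and 71.1 per merged exon length, and NRAS, with 1 transcript, had 44.4 and 43.2. Levels below are the deposited FPKM, and the level per merged exon length, termed exon-length FPKM, stands beside them where a family or list is ordered by it. An order of genes given without it holds on the deposited scale. The counts behind the values summed to between 71643189 and 82266457 per library.

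A small set of genes made up much of the signal. The 100 highest genes held 41.7% ± 0.719 of the summed FPKM (SD, n = 5), and 234 genes held 50% of it. Of all genes, 4517 (26.99%) were silent, 3322 lay between 0.1 and 1 FPKM, 6906 between 1 and 10, 1872 between 10 and 100, and 117 at 100 or more. The 8895 genes of at least 1 FPKM held 98.7% of the sum. No listed gene was at 0 in all 10 libraries. The 980 genes at 0 in these 5 are therefore listed only through counts in the drug arm. Silent shares and list sizes depend on which genes were listed. Per merged exon length the 100 highest genes held 33.1%, 441 genes held 50%, and 3868 of 16706 genes were silent.

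The highest transcripts were those of the mitochondrial genome, which encodes subunits of the respiratory chain and of ATP synthase. All 13 protein-coding mitochondrial genes were among the 30 highest and together held 22.6% ± 0.704 of the FPKM, from 21.9% to 23.8% per library. MT-CO3, a cytochrome c oxidase subunit, came first at 5212 ± 211 FPKM, followed by MT-CO2 at 4463 ± 169 and MT-CO1 at 3261 ± 174. MT-ND6, the only one encoded on the other strand, was the lowest of the 13 at 481 ± 32.3. The share depends on the length used, since these genes have a single short transcript each. It was 11.4% ± 0.416 of exon-length FPKM and 2.34% ± 0.102 of the counts. MT-ATP8 overlaps MT-ATP6 and MT-ND4L overlaps MT-ND4, and reads that lie in these short overlaps cannot be told apart.

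Among nuclear genes, iron storage, actin-binding and translation transcripts stood first. FTL, the light chain of ferritin, was 6th of all genes with 3319.9, 3285, 3010.1, 3080.1 and 3053 FPKM in replicates 1 to 5. TMSB10 and TMSB4X, which bind monomeric actin, had 1618 ± 77.8 and 1041 ± 25.1 FPKM. The elongation factors EEF2 and EEF1A1 had 964 ± 15.3 and 868 ± 15.4. SCD, the stearoyl-CoA desaturase that makes monounsaturated fatty acids, was 17th with 733 ± 12.2 FPKM, its libraries lying between 716 and 744. ALDH1A1, which oxidises retinal and other aldehydes, was 26th with 302 ± 4.25. The intermediate filament VIM was 18th, above GAPDH at 491 ± 21.2 and ACTB at 316 ± 9.74.

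The 79 cytosolic ribosomal protein genes measured held 6.96% ± 0.0662 of the FPKM, with a median of 86.4. Their listed levels ran from 11.2 for RPS29 to 612 for RPS12, although the ribosome contains most of these proteins in equal numbers. Per merged exon length they ran from 13.5 for RPS29 to 1075 for RPS2. FTL, EEF1A1, GAPDH and the ribosomal protein genes have many near-identical processed copies in the genome, and how reads shared with such copies were counted is not given in the sources used here. Of the 30 highest genes, 23 were also among the 30 highest per merged exon length, where TMSB4X stood above TMSB10 and GAPDH rose to 9th place.

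**Figure D1:**
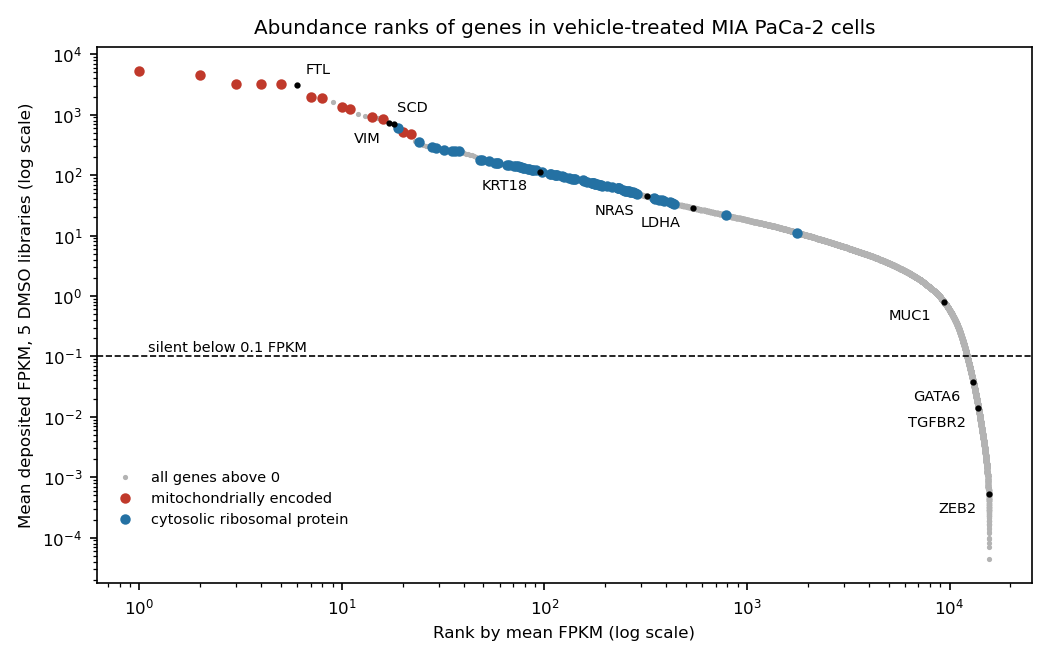
Mean deposited FPKM over the 5 DMSO libraries against rank, both on log axes, for genes above 0; red points are mitochondrially encoded genes, blue points cytosolic ribosomal protein genes, and black points named examples. The 13 mitochondrial genes fill most of the first ranks, and the curve drops steeply below the dashed line at 0.1 FPKM, under which 4517 genes lie.

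The cells kept simple epithelial keratins and SOX9 and lacked most other duct transcripts. KRT18 and KRT8, the keratin pair of simple epithelia, had 114 ± 3.98 and 51.8 ± 1.25 FPKM, and KRT19, the classic keratin of pancreatic ducts, had 26.6, 24.1, 24.3, 22.9 and 22.2 FPKM in replicates 1 to 5. SOX9, a transcription factor of duct cells and pancreatic progenitors, had 24.7 ± 0.378. Of 16 duct genes measured, 7 were silent (43.75%, against 26.99% of all genes). CFTR, the chloride channel of the duct, and the bicarbonate transporter SLC4A4 had 0 counts in all 5 libraries. A count of 0 allows up to 0.00126 FPKM for CFTR, taking 3 counts as the limit, for counting error only. KRT7, another duct keratin, was low at 0.226 ± 0.0354, and the mucin MUC1 had 0.808 ± 0.0656.

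Transcripts of the other pancreatic cell types were mostly silent. Of 11 acinar genes 9 were silent, against 26.99% of all genes, among them the acinar transcription factor PTF1A with 0 counts. The highest were NR5A2, a nuclear receptor, at 0.545 ± 0.0566 and CEL, a bile-salt-activated lipase, at 0.307 ± 0.0953. Of 17 endocrine genes 11 were silent, and GCG, CHGA and NEUROD1 had 0 counts. SCG2, a granin of secretory granules, stood apart from them with 35.6, 35.6, 35.4, 36.6 and 36.7 FPKM, and MAFA, a beta-cell transcription factor, had 1.32 ± 0.210. All 5 values of SCG2 lay above every value of the other endocrine genes. Many genes of these lists, among them INS and PRSS1, were not analysed here.

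Of 23 foregut and pancreas transcription factors, 9 were silent, 6 lay between 0.1 and 1 FPKM and 8 had at least 1 FPKM. Their silent share was 39.1%, against 26.99% of all genes. Besides SOX9, EHF, an ETS factor of epithelia, KLF4, HHEX and HES1 were at 2 FPKM or more. GATA4, a zinc-finger factor of the foregut, had 1.35 ± 0.0396 FPKM. GATA6, its paralog and a marker of classical tumours, was silent with 0.0497, 0.0408, 0.0257, 0.00983 and 0.0639. FOXA1 had 0.239 ± 0.0575, and FOXA2 and SOX2 had 0 counts. HNF4A was silent as well, and PDX1, the factor that specifies pancreas, had 0.152 ± 0.0538. EHF was uneven, with 27.8, 26.4, 29.3, 14.1 and 28.5 FPKM, replicate 4 lying below the 4 others.

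**Figure D2:**
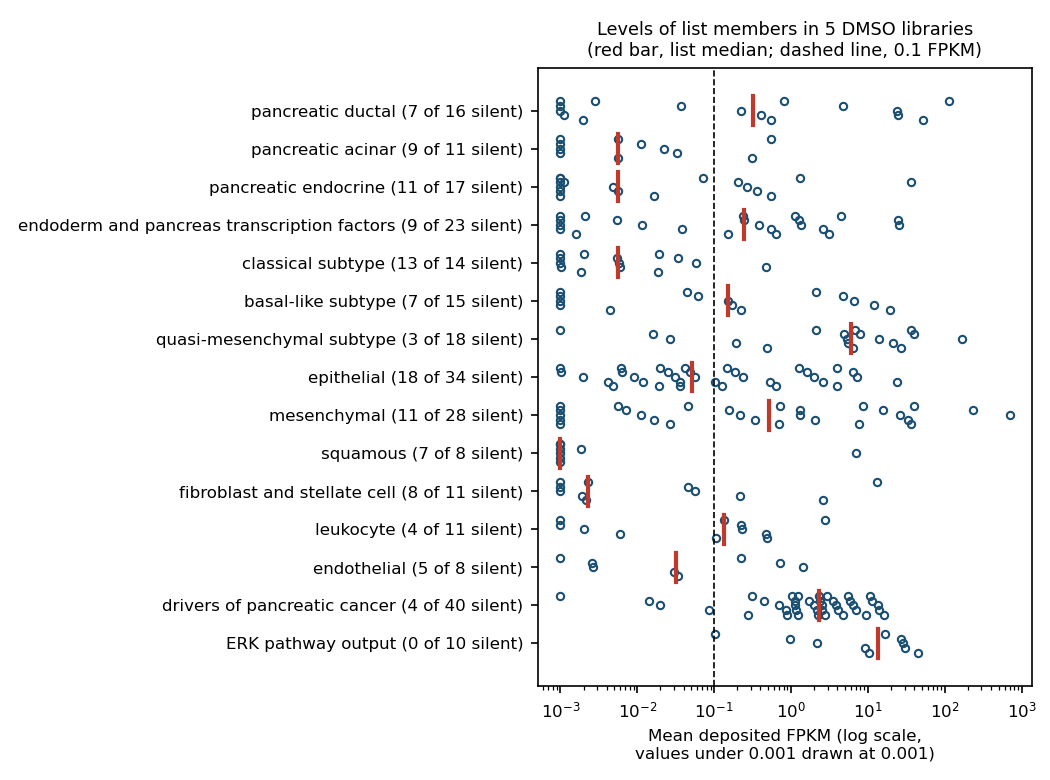
Mean deposited FPKM of each measured member (circles) of 15 gene lists on a log axis, with the list median in red and the number of silent members beside each name. The classical subtype list lies almost wholly left of the 0.1 FPKM line, while the quasi-mesenchymal list, the driver list and the ERK output list lie mostly right of it.

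The subtype lists differed in how many members were silent. Of 14 classical genes measured, 13 were silent, against 26.99% of all genes, and the exception, LYZ, had 0.467 ± 0.0913 FPKM. CEACAM6 and ANXA10 had 0 counts, and LGALS4, TSPAN8 and CDH17, a galectin, a tetraspanin and a cadherin of gut epithelium, were all under 0.1. Of 15 basal-like genes 7 were silent and 5 had at least 1 FPKM, led by AREG, an EGF receptor ligand, at 19.3 ± 1.69 and the keratin KRT15 at 11.9 ± 0.340. Of 18 quasi-mesenchymal genes 3 were silent and 13 had at least 1 FPKM, with a list median of 5.98 against 1.22 for all genes. Its highest members were CKS2, a partner of cyclin-dependent kinases, at 165 ± 7.78, the inositol transporter SLC5A3 at 39.3 ± 7.33 and NT5E, the surface enzyme CD73, at 36.6 ± 1.42.

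Cell junction genes were partly present. CLDN4, a tight junction claudin, had 22.5, 22.7, 25.0, 23.9 and 25.1 FPKM, and the desmosome genes DSG2 and DSP had 6.34 ± 0.323 and 4.00 ± 0.115. CDH1, the adherens junction protein E-cadherin, and EPCAM, an epithelial adhesion molecule, were at 0.00103 ± 0.000947 and 0.00197 ± 0.00440 FPKM. CDH1 had 4 counts in each of 3 libraries and 0 in the others, and EPCAM had 5 counts in 1 library. The splicing factors of epithelia, ESRP1 and ESRP2, were also silent, and so were CLDN3, CLDN7, RAB25, ST14 and SPINT1. Of the 34 epithelial genes, 18 were silent (52.9%, against 26.99% of all genes) and 9 had at least 1 FPKM.

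Mesenchymal genes were also partly present. VIM, the filament of mesenchymal cells, had 683, 718, 682, 694 and 699 FPKM, and S100A4, a calcium-binding protein of motile cells, had 214, 231, 254, 238 and 238. The hyaluronan receptor CD44 (39.6 ± 0.666), the collagens COL1A2 (25.8 ± 0.866) and COL6A1 (15.8 ± 0.261) and the receptor kinase AXL (7.63 ± 0.202) were also well above 1 FPKM. COL1A1, whose product assembles with that of COL1A2 into type I collagen, was silent at 0.0459 ± 0.0150. FN1, SPARC, THY1 and SNAI2 were silent, and MMP2, CDH11 and PRRX1 had 0 counts. Of the 28 genes, 11 were silent (39.3%, against 26.99% of all genes) and 12 had at least 1 FPKM.

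TP63, a transcription factor that drives squamous identity, had 6.86, 7.13, 7.12, 7.08 and 7.001 FPKM. The other 7 squamous genes measured were silent (87.5% of 8, against 26.99% of all genes). KRT5 was at 0.00186 ± 0.00259, and KRT14, DSG3, DSC3, IVL, KRT6B and PKP1 had 0 counts. The table gives 1 value per gene and does not separate the isoforms of TP63 that hold or lack its activating domain.

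Markers of cells that surround a tumour were checked in the same way. PTPRC, the pan-leukocyte phosphatase CD45, had 0 counts. The fibroblast genes DCN, FAP and PDPN had 0 counts and PDGFRA and PDGFRB were under 0.1 FPKM, while RGS5, a marker of pericytes, had 13.1 ± 0.546. Of 8 endothelial genes 5 were silent, PECAM1 at 0.00260 ± 0.00356 and TEK at 0.000527 ± 0.00118, but CDH5, the cadherin of endothelium, had 1.40, 1.50, 1.42, 1.41 and 1.40 FPKM. Of 10 neural and neuroendocrine genes 4 were silent, NEFL and NCAM1 with 0 counts, and 3 had at least 1 FPKM. These were TUBB3, a neuronal tubulin, at 13.9 ± 0.711, the enolase ENO2 at 2.73 ± 0.456 and the filament NES at 1.52 ± 0.177. Of 11 leukocyte genes 4 were silent (36.4%, against 26.99% of all genes) and 6 lay between 0.1 and 1 FPKM. CD68, a lysosomal protein of macrophages and other cells, was the one at 1 FPKM or more, at 2.75 ± 0.358. Of 11 fibroblast genes 8 were silent.

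**Figure D3:**
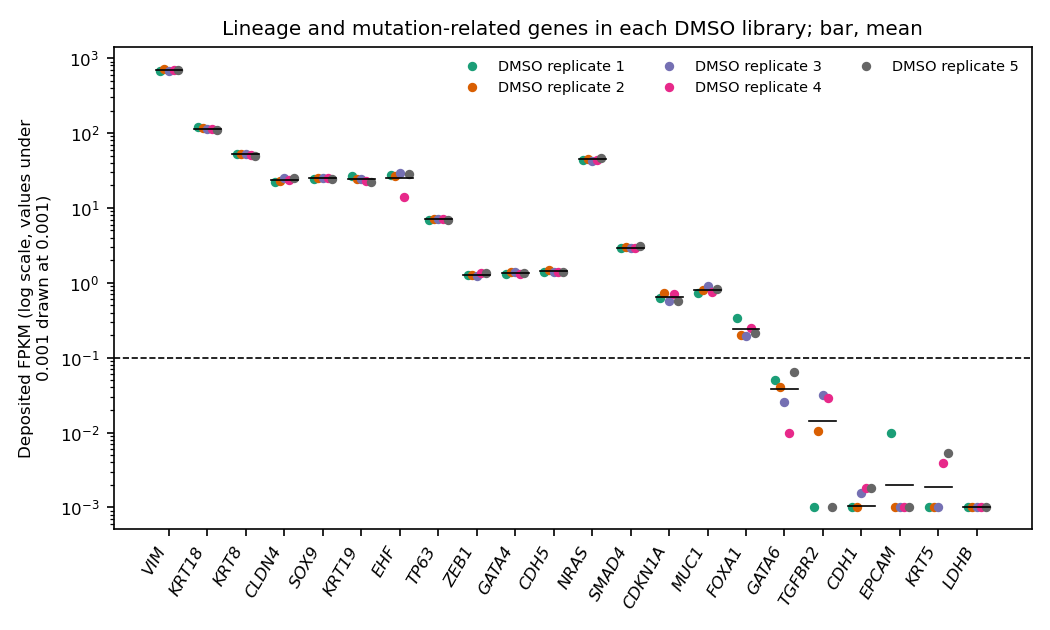
Deposited FPKM of 22 genes in each of the 5 DMSO libraries on a log axis, with the mean as a bar; values under 0.001, zeros included, are drawn at 0.001. The 5 points nearly coincide for genes above 1 FPKM apart from EHF, whose replicate 4 lies below the others, and scatter widely under the 0.1 FPKM line, where few counts stand behind each point.

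Of 40 measured genes that are mutated in this tumour type, 4 were silent, against 26.99% of all genes, and 30 had at least 1 FPKM, against 53.2% of all genes. Per merged exon length GNAS and MYC were the highest at 71.1 and 70.0. SMAD4, which carries the TGF-beta signal to the nucleus, had 2.94 ± 0.0911. RNA levels say nothing of which allele was read, and no allele was looked at.

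The 4 silent members were TGFBR2, SMARCA2, RNF43 and SLIT2. TGFBR2, the type 2 receptor through which TGF-beta signals, had 0, 0.0104, 0.0316, 0.0287 and 0 FPKM, while its partner receptor TGFBR1 had 2.80 ± 0.0955 and the mediators SMAD2 and SMAD3 had 1.73 ± 0.0495 and 6.95 ± 0.171. TGFBR2 was thus at or near 0 in every library, while these 3 partners were above 1. SMARCA2, an ATPase of the BAF chromatin remodeller, had 0.0848 ± 0.00735 FPKM and 579 to 771 counts per library, and at 0.487 per merged exon length it was above the 0.1 limit. RNF43, a membrane ubiquitin ligase that removes Wnt receptors, had 0.0199 ± 0.00964.

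CDKN2A, CDKN2B and MTAP, neighbours on chromosome 9, were not analysed here. In GENCODE 29 coordinates (GRCh38), CDKN2A lies at 21967753 to 21995301 on chromosome 9. The nearest gene with a value on the side of the short arm's end was ACER2, a ceramidase, 2.52 Mb away with 0.924 ± 0.196 FPKM, and the nearest on the other side was CAAP1, 4.85 Mb away with 3.57 ± 0.201. Just beyond ACER2 lies RPS6, a ribosomal protein gene with 282 ± 7.96 FPKM. The retinoblastoma gene RB1 had 9.43 ± 0.231 and CDKN1A, an inhibitor of cyclin-dependent kinases, 0.640 ± 0.0723.

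All 10 genes read as output of ERK signalling were above 0.1 FPKM, as were 73.0% of all genes. Their median was 13.5 against 1.22 for all genes, and they ran from SPRY2, a feedback inhibitor, at 45.1 ± 0.870 to the phosphatase DUSP4 at 0.103 ± 0.0186. DUSP4 lay at the limit, with 0.0990 without replicate 1 and 0.0968 without replicate 3, so that without either it would count as silent.

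Genes that handle drugs and hormones were read as a description of the untreated line. DPYD, which breaks down fluorouracil, had 27.2 ± 0.652 FPKM, TYMS, its target enzyme, 17.4 ± 3.65, and the gemcitabine-related genes SLC29A1 (uptake), DCK (activation) and CDA (inactivation) had 2.23 ± 0.118, 2.49 ± 0.112 and 3.58 ± 0.357. TYMS was uneven, with 15.3, 23.6, 15.7, 14.7 and 17.9 FPKM. ESR1, the oestrogen receptor, had 0 counts, and the glucocorticoid receptor NR3C1 had 2.42 ± 0.0593. PGR, the nuclear progesterone receptor, was not analysed here, while the membrane-associated PGRMC1 had 58.7 ± 0.662 and the membrane progestin receptor PAQR7 had 5.94 ± 0.156. In a list of 25 surface proteins studied as targets in this tumour, 10 were silent (40%, against 26.99% of all genes). EPHA2 (30.3 ± 0.692) and TFRC (23.7 ± 0.451) were the highest of that list, and CEACAM5, NECTIN4, MSLN and CLDN18 were silent.

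Paralogs, genes that arose by duplication and often encode forms of the same enzyme, were used unequally. Some families group genes by function or name instead of descent, such as lactate dehydrogenases with LDHD and argininosuccinate enzymes with arginases. Of 85 families with at least 2 measured members, 82 had an expressed member, and 3, among them the ESRP and classical cadherin families, had none. The first member held at least 90% of the family's FPKM in 29 families, 50 to 90% in 39 and less in 14. Its value was above that of the second member in all 5 libraries in each of the 82. With 5 libraries an exact paired test cannot reach the 0.05 threshold, so the order is given without a test.

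Several energy enzymes rested on 1 member. LDHA, the lactate dehydrogenase subunit of anaerobic tissues, had 28.5, 29.7, 30.8, 27.8 and 26.9 FPKM. LDHB, the subunit of heart muscle, had 0 counts in all 5 libraries, which allows up to 0.00547 FPKM. LDHD, a lactate dehydrogenase of mitochondria that is not a duplicate of LDHA, had 1.58 and the testis form LDHC 0.216. LDHA held 94.1% ± 0.288 of the family with LDHD counted in it. PKM, pyruvate kinase of most tissues, had 63.8 FPKM, and PKLR, the liver and red cell form, had 0.00388. COX4I1 had 14.3 with COX4I2 at 0, and SCD held 99.1% ± 0.0525 of its pair with SCD5.

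Some families of regulators also rested on 1 member. HMGA1, a chromatin-binding protein of proliferating cells, had 73.7, 72.5, 69.5, 68.2 and 67.5 FPKM, and HMGA2 was at 0.00319 ± 0.00333. ZEB1, a repressor of epithelial genes, had 1.27, 1.27, 1.22, 1.35 and 1.34, and ZEB2 was at 0.000524 ± 0.000701. CCND1 held 94.8% ± 0.218 of D cyclins and MYC 96.9% ± 0.460 of its family. The BAF ATPase SMARCA4 held 92.3% ± 0.773 of its pair with SMARCA2. Outside the regulators, CA11 at 15.6 held 96.3% ± 0.691 of the carbonic anhydrases, and CA9, one induced by low oxygen, had 0 counts. Annexins did not rest on 1 member. ANXA1 at 96.7 held 54.0% ± 0.453 of them, and ANXA3 had 0 counts. In other families no member dominated, with TEAD4 at 36.9% ± 1.71 of the TEAD transcription factors and RBL2 at 43.5% ± 0.853 of the retinoblastoma family.

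Other families had a smaller first share. AXL held 77.2% of the TAM receptors and EGFR 69.8% of the ERBB receptors. NRAS, a small GTPase of growth signalling, had 43.7, 44.8, 42.9, 44.1 and 46.5 FPKM, values that lay close together. The narrowest gaps between first and second were HKDC1 over HK2 (1.06 times), COX7A2 over COX7A2L (1.07 times) and UBB over RPS27A (1.09 times).

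The order of paralogs moved with the length used in 9 of the 82 families. Among them, per merged exon length PIK3CB passed PIK3CA, FGFR3 passed FGFR4, TPM3 passed TPM2, TMSB4X passed TMSB10, HK1 passed HKDC1, ACSL4 passed ACSL3, RPL36A passed RPL36AL and AKR1A1 passed AKR1C1. Hexokinase changed most, with HKDC1 at 34.9998% ± 0.739 of deposited FPKM and HK1 at 63.4% per merged exon length. The families named above with 1 dominant member kept it on both scales.

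**Figure D4:**
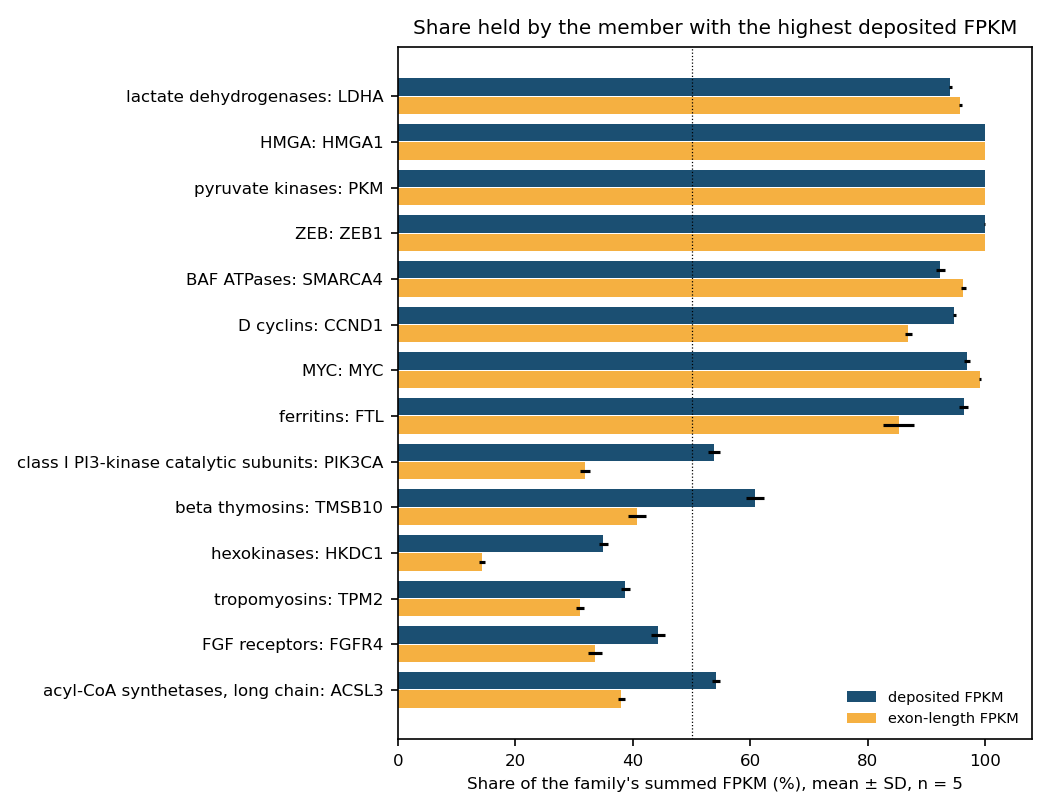
Share of a family's summed FPKM held by the member with the highest deposited FPKM, as deposited (blue) and per merged exon length (orange), mean with SD over 5 libraries for 14 families. The upper families lie far above 50% on both scales, while PI3-kinase, beta thymosin, hexokinase, tropomyosin, FGF receptor and acyl-CoA synthetase members lie below 50% per merged exon length.

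CpG dinucleotides at the start of a gene are a known feature of broadly used promoters, and they are sites of DNA methylation, which was not measured here. RefSeq promoters (GRCh38.p14, 250 bases before to 50 after the start) were matched by symbol for 13033 of 16678 nuclear genes. Only 1 window per symbol was used, so other starts of a gene were not looked at. A window was counted as CpG-rich at an observed to expected CpG ratio of at least 0.6 and a GC content of at least 50%. This held for 37.7% of silent genes, 69.0% of those at 0.1 to 1 FPKM, 85.5% at 1 to 10, 89.1% at 10 to 100 and 86.9% at 100 or more, against 71.1% of all. The motif TATAAA on either strand was in 13.6% of silent windows, 4.53% at 1 to 10 FPKM and 10.7% at 100 or more, against 7.34% of all. Of 10 silent classical genes with a window, 1 was CpG-rich, against 6 of 10 silent endocrine genes and 3 of 4 silent foregut and pancreas transcription factors. Both features varied with level. CpG-rich windows were much less common among silent genes, yet 37.7% of these had one, and 13.6% held TATAAA. Neither feature alone marks a gene as silent.

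The 250 bases before the start are shown for an expressed and an undetected paralog and for 2 silent lineage genes, 5′ to 3′ on the strand of the gene, with every CG in capitals. LDHA lies on the plus strand of chr11:18394313-18394562, LDHB on the minus strand of chr12:21657843-21658092, GATA6 on the plus strand of chr18:22169339-22169588 and ALB on the plus strand of chr4:73404037-73404286.
LDHA: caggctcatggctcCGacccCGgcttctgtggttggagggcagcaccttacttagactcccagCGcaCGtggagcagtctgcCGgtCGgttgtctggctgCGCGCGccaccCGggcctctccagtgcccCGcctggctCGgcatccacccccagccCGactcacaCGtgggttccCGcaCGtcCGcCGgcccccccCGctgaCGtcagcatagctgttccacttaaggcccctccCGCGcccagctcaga
LDHB: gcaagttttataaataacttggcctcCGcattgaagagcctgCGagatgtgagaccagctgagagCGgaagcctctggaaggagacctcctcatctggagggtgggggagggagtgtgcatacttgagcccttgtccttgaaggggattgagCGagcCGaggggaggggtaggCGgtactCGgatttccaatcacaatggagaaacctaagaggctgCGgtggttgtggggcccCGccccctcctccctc
GATA6: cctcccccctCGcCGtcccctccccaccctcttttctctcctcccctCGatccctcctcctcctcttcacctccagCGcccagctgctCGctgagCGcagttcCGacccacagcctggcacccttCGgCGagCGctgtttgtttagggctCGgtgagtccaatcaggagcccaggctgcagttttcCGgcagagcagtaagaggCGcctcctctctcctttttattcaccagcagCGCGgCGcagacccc
ALB: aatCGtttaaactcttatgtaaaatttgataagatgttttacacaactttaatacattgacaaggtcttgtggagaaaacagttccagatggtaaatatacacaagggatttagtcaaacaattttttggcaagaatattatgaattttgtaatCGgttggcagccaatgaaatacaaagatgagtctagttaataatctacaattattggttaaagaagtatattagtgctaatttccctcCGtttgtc
The stretch of LDHA holds 22 CG, that of LDHB 9, that of GATA6 16 and that of ALB, the liver albumin gene at 0.000965 FPKM, 3. By the limits above the LDHA and GATA6 windows are CpG-rich and the LDHB and ALB windows are not. LDHB missed only the ratio limit, at 0.549 with 59% GC, while ALB missed both at 0.481 and 33.3%. A silent gene can thus have either kind of start, as GATA6 and ALB do.

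The 5 libraries were close to each other. Over 8895 genes of at least 1 FPKM, Pearson r on log2(FPKM + 0.1) was 0.986 to 0.991 for the 10 pairs, across genes, which are not independent. No library stood apart, with mean r to the others of 0.988 to 0.989. The median CV of these genes was 4.02%, against 1.61% from counting alone if each count is 1 independent fragment, which was not tested. Of these genes, 92.8% had a CV under 10%. At 0.1 to 1 FPKM the median CV was 11.3%, and for silent genes above 0 it was 94.7% with a median of 5.6 counts per library. Of 3537 silent genes above 0, 54 had a CV under 10%, so few of them were measured as closely as the genes above 1 FPKM.

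The steadiest genes of at least 10 FPKM were SLC25A3, the mitochondrial phosphate carrier, with a CV of 0.427%, SPIN1 (0.470%), EIF4G2 (0.555%) and OGDH (0.558%). These were picked by their CV out of 1989 genes, whose median CV was 2.85%. Genes used as qPCR references lay on both sides of that median. YWHAZ had a CV of 1.00%, PPIA 1.60%, ACTB 3.08%, GAPDH 4.32% and PGK1 10.98%. PGK1, a glycolytic kinase, had 70.2, 72.1, 70.5, 60.3 and 55.9 FPKM, replicates 4 and 5 lying below the others.

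Most of the genes with the widest spread shared their position with another gene. Of the 15 with the highest CV at 10 FPKM or more, 14 have coordinates and 12 of these overlap another gene of the table on the same strand, as did 9.51% of all genes at that level. AP000350.4 had 58.3 FPKM in replicate 2 and 0 in the others (CV 224%). It overlaps MIF, a secreted cytokine gene, which had 66.4, 44.0, 85.2, 62.0 and 55.4 FPKM, lowest in replicate 2. RPS10-NUDT3, a readthrough locus, had 18.99, 5.04, 5.67, 4.36 and 19.7 FPKM (CV 73.2%), and RPS10 had 111, 126, 124, 129 and 107. Replicates 1 and 5 were high for the readthrough locus and low for RPS10, and the summed counts of both had a CV of 1.38%. SENP3-EIF4A1 had 8.18, 8.88, 6.62, 28.6 and 29.1 FPKM (CV 70.7%), and its counts summed with those of EIF4A1 had a CV of 1.63%. Other sums stayed wide, with a CV of 16.7% for AP000350.4 with MIF and 19.2% for RPL17-C18orf32 with C18orf32. For a gene with more than 1 overlap, the partner giving the steadiest sum was taken, so a low CV of the sum was partly picked. Over the 12 overlapping genes the CV of the sum ran from 0.766% to 25.7%. The lowest was for AL589666.1 with SYNCRIP, which alone had a CV of 1.11%. How the authors assigned reads between overlapping genes is not given in the sources used here.

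EHF, with its low replicate 4, and ARL2BP, which binds the GTPase ARL2, were 2 genes of the 15 without such an overlap. ARL2BP had 2.47, 10.8, 14.6, 14.4 and 11.4 FPKM, replicate 1 lying below the rest. FTH1, the heavy chain of ferritin, was chosen after its values were seen. It had 108.2, 106, 107.99, 111 and 158 FPKM. BEST1, a chloride channel gene also named after its values were seen, overlaps FTH1 on the opposite strand in GENCODE 29, and without a stated strand setting the reads of the pair cannot be told apart. It had 69.4, 70.5, 66.3, 66.5 and 43.8, so that replicate 5 was the highest for FTH1 and the lowest for BEST1.

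**Figure D5:**
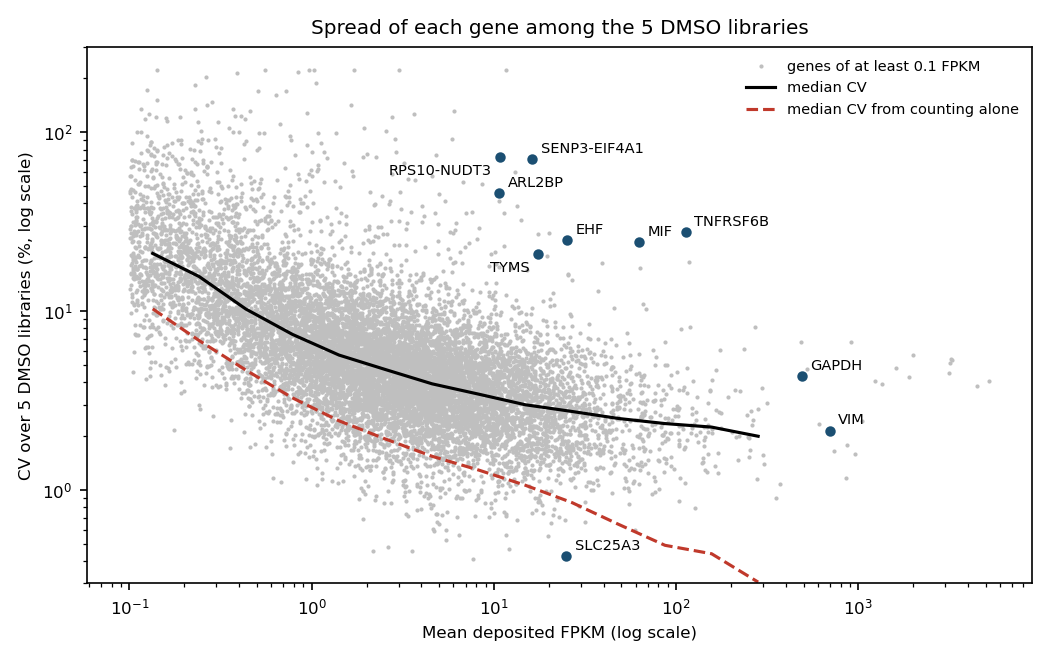
CV over the 5 DMSO libraries against mean deposited FPKM, both on log axes, for genes of at least 0.1 FPKM; the black line is the median CV in bins of level and the red dashed line the median CV that counting alone would give. The black line falls with level and stays above the red one, and named genes such as RPS10-NUDT3, SENP3-EIF4A1, ARL2BP and EHF lie far above it.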

How the data were processed

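Poly(A) RNA of MIA PaCa-2 cells was sequenced, and the 5 libraries of the DMSO group, assigned by their treatment label, were described. The authors deposited 1 table of FPKM for 16734 genes. The build GRCh38.p13 and the tools edgeR, STAR 2.7.7a and fastp 0.23.2 are listed, without their roles, per the submitters' processing notes. No source used here gives the read counter, annotation, strand setting or gene filter.

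Values were whole multiples of 1 count in each library within 0.0001 of a count for all 16734 genes. Steps over all 10 libraries gave the length behind each gene, taken nearest the annotated sum where counts were few. Recovered counts summed to 99.99% of the depth behind the deposited FPKM. Recovery was tested on simulated data with annotated lengths and independent counts, so the test does not cover genes with another length. For sparsely detected genes the counts are approximate. Floors and counting CVs cover counting error only and take each count as 1 independent fragment. Exon-length FPKM divides the counts by merged exons of GENCODE 29, a scale added after seeing the data. Of 344 genes without a symbol, 331 were named by ID.

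No test between groups was run, since only 1 group is described. Members and lists were chosen with earlier results of these data known. Genes named were the members of the lists and paralog families, the 30 with the highest mean FPKM, and the 15 with the highest and the 15 with the lowest CV at 10 FPKM or more. A gene outside these was chosen with its values in view, and the text says so. Some listed genes are not reported here. Alternatives changed the scale, the summary, the threshold, the pseudocount, the filter and the libraries. Python 3.11.15 with NumPy 2.4.6, pandas 2.3.3 and matplotlib 3.10.9 was used.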

Additional observations from a re-analysis of the deposited data

Results flagged for a closer look

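With 5 values per group, 142 groups (the genes named above at 0.1 FPKM or more and 4 library sums and shares) were screened for a library far from the other 4. Chance alone flags about 1 in 20, and 8 were found. Some screened genes were named for their wide spread or after their values were seen, so that rate is no yardstick for the 8.

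EHF was 14.1 FPKM in replicate 4 and 26.4 to 29.3 in the others. FTH1 was 157.87 FPKM in replicate 5 and 106 to 111 in the others, and BEST1 was 43.8 in replicate 5 and 66.3 to 70.5 in the others. CDH5 was 1.499 FPKM in replicate 2 against 1.40 to 1.42, and SMARCA4 was 0.973 in replicate 2 against 1.03 to 1.05. The mitochondrially encoded share of FPKM was 23.8% in replicate 2 against 21.9% to 22.4%. AP000350.4 was 58.3 FPKM in replicate 2 and 0 in the others, and GNAS was 12.9 in replicate 1 against 13.5 to 13.7. For CDH5, SMARCA4, GNAS and the mitochondrial share the far value lay within 10% of the mean.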

How the results depend on the processing

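Main values were recomputed on other scales, thresholds, summaries and filters and without each library. Of 78 recomputed values, 66 stayed within 1.5 times (counts) or 1 SD (shares, CV and r). That number is no measure of stability. Rescaling whole libraries leaves the share of the 100 highest genes unchanged, so that check could not fail. The limit of 1.5 times is wide, and 23 of the 30 highest genes kept per merged exon length passed it. The number of silent genes was 4517. It was 2776 after rescaling to TPM, whose units are smaller at the same limit of 0.1, and 7839 with a limit of 1 FPKM. The 100 highest genes held 33.1% instead of 41.7% of the sum per merged exon length, a scale chosen after seeing the data. The median CV of 4.02% was 4.98% for genes of at least 0.1 FPKM, 6.59% with no filter, 4.29% in TPM, 4.42% per merged exon length, and 3.73% to 3.97% with 1 library left out. The lowest r of 0.986 was 0.993 with a pseudocount of 1 FPKM, 0.989 for genes of at least 0.1 FPKM, 0.994 with no filter and 0.978 in TPM. With counts not divided by length, 67 of 82 paralog families had the same first member. Of 204 genes named, the mean of 136 moved by more than 1 SD per merged exon length. Leaving out 1 of 5 libraries cannot move a mean by 1 SD, so for gene means that check could not fail. AP000350.4, with its wide SD, is at 0 without replicate 2. No paired analysis was possible because only 1 group was described and no test was run.

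Depth limits the silent genes, of which 980 were at 0 in all 5 libraries and the other 3537 had a median of 5.6 counts per library. Among values of sparsely detected genes, 4 counts (572 values) were commoner than 1 (268), 2 (264) or 3 (361), so a count there need not be a single fragment.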

Other observations

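Keratins beyond the simple pair were few. Of 22 measured, 11 were silent (50%, against 26.99% of all genes). Besides KRT8, KRT18 and KRT19 the highest were KRT80 at 12.2 ± 0.661 FPKM and KRT15 at 11.9 ± 0.340 (SD, n = 5). Of 8 measured genes in a list of mucins and trefoils, which belong to the gel and coat of gut epithelia, 7 were silent (87.5%, against 26.99%). MUC1 was the exception. Of 11 cancer-testis genes, normally limited to the germline, 9 were silent (81.8%, against 26.99%), and PRAME had 1.19, 1.18, 1.37, 1.30 and 1.40 FPKM. Of 7 hepatocyte genes 6 were silent (85.7%, against 26.99%), with SERPINA1, a protease inhibitor, at 0.371 ± 0.0531.

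Values that stood against a partner gene were seen for ferritin as well. FTL was listed at 26.7 times the FPKM of FTH1. The light chain held 96.4% ± 0.740 of ferritin FPKM as deposited and 85.3% per merged exon length, replicate 5 included. Reads of FTH1 cannot be told apart from those of BEST1 here, and FTL has processed copies. How far the ratio and shares depend on read assignment was not tested.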
